A study of Mus musculus with 6 samples.

Results

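Oxidative phosphorylation ends in 4 protein complexes of the inner mitochondrial membrane. Complex II (succinate dehydrogenase) and complex III (cytochrome bc1) pass electrons on, complex IV (cytochrome c oxidase) hands them to oxygen, and complex V (ATP synthase) makes ATP from the proton gradient. Complex II is built wholly from nuclear genes, whereas complexes III, IV and V also hold subunits made from mitochondrial DNA. Hematopoietic stem cells are known to rely little on respiration, and progenitors that divide and differentiate rely on it more.

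The nuclear genes of these complexes were followed in Lin-CD117+ bone marrow cells sorted from CByB6F1 mice. Stem and progenitor cells are found in this fraction, which is sorted for CD117 (the receptor KIT) and against lineage antigens. The samples were 3 pools from RUX-treated mice (pools 4, 5 and 6) and 3 pools from untreated mice (pools 1, 2 and 3). RUX is ruxolitinib, an inhibitor of the kinases JAK1 and JAK2. All mice were female and 2 to 5 months old, and each pool joined sorted cells of 2 to 3 animals. The labels state no dose, route or duration. The genes were taken by symbol, as all rows beginning with Sdh followed by a, b, c or d alone, with Uqcr, with Cox4 to Cox8 and then a, b or c, or with Atp5. This gave 45 of 24421 genes: 4 of complex II, 8 of complex III, 16 of complex IV and 17 with symbols of complex V, of which Atp5s and Atp5sl are not subunits. Cox4i1, Cox4i2 and Cyc1 encode subunits of complexes IV and III but have other symbols, and are described beside them. The table held 0 genes of the mitochondrial DNA. Libraries held 46027491 to 48747137 counted read pairs in RUX pools and 27354768 to 38691826 in untreated pools, and the 45 genes took 1.65 to 1.75% of them in RUX pools and 1.55 to 1.81% in untreated pools.

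Many promoters of respiratory genes are known to carry sites for the factors NRF1 and GABP (an ETS protein) or YY1. RefSeq promoter windows (GRCm38.p6, 250 bases before to 50 after the start site) were at hand for 37 of the 45 genes. Letters typical of NRF1 (GCGCA, any base, then GCGC) stood on either strand in 10 of the 41 windows of these 37 genes (24.4%) and in 4.60% of all 32851 windows. The ETS letters CCGGAAG stood in 12 of the 41 windows (29.3%) and 8.86% of all windows, and the YY1 letters AAGATGGC in 5 (12.2%) and 2.75% of all windows. These are matches of letters, and no binding was measured. NRF1 and ETS letters occurred together in 4 of the 41 windows (9.76%), those of 4 genes, and in 0.892% of all windows. The 3 of these genes with both inside the last 150 bases before the start site are shown because they span complexes II, IV and V (the other is Atp5k), with those letters in capitals, 5′ to 3′ on the strand of the gene. All 3 lie on the minus strand, Atp5h at chr11:115419920-115420069, Cox6a1 at chr5:115348959-115349108 and Sdhd at chr9:50603850-50603999.
Atp5h: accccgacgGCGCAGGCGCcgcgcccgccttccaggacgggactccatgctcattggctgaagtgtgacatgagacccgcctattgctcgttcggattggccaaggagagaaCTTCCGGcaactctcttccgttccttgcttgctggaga
Cox6a1: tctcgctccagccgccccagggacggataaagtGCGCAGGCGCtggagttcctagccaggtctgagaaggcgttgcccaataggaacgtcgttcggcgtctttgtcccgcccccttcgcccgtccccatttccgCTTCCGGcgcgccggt
Sdhd: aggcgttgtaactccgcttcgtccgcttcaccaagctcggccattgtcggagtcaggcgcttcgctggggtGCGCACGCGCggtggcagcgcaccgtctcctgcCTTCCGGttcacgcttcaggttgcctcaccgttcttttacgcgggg
In the values that follow, Atp5h and Cox6a1 followed the pool pattern shared by most short subunit genes, and Sdhd did not.

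The question was whether ruxolitinib changed the respiratory chain transcripts of these cells. Of the 45 genes, 42 were counted well enough to test, and 0 of them differed between RUX and untreated pools by edgeR's quasi-likelihood test (Benjamini-Hochberg adjusted p under 0.05 over 13411 genes). In all tested genes the share called was 0%. At an unadjusted p under 0.05 there were again 0 of the 42, against 1.89% of all tested genes, and the smallest unadjusted p was 0.121. None of the 42 had 3 RUX values lying all above or all below the 3 untreated values, while 6.24% of all tested genes did (2.99% with RUX higher and 3.25% with RUX lower). Log2 fold changes, RUX over untreated, were positive for 29 and negative for 13, against 49.2% positive over all tested genes. They ran from −0.30 to 0.26 and their median was 0.04, that of all tested genes being −0.004. The direction of this median depended on single pools. It was −0.12 without RUX pool 4, 0.08 without RUX pool 5 and 0.10 without RUX pool 6, and it was −0.01, −0.02 and 0.15 without untreated pools 1, 2 and 3 in turn.

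The intervals bound what these pools could have missed. For 38 of the 42 genes, and 56.8% of all tested genes, the 95% interval stayed inside a 1.5-fold change up or down. For 41 of the 42, and 80.9% of all, it stayed inside a 2-fold change. By complex, the first count was 4 of 4 for complex II, 8 of 8 for complex III, 10 of 13 for complex IV and 16 of 17 for complex V. The exceptions were Cox6a2, Cox8a and Atp5g2, and Cox7a1, a barely expressed gene whose interval also passed 2-fold.

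**Figure D1:**
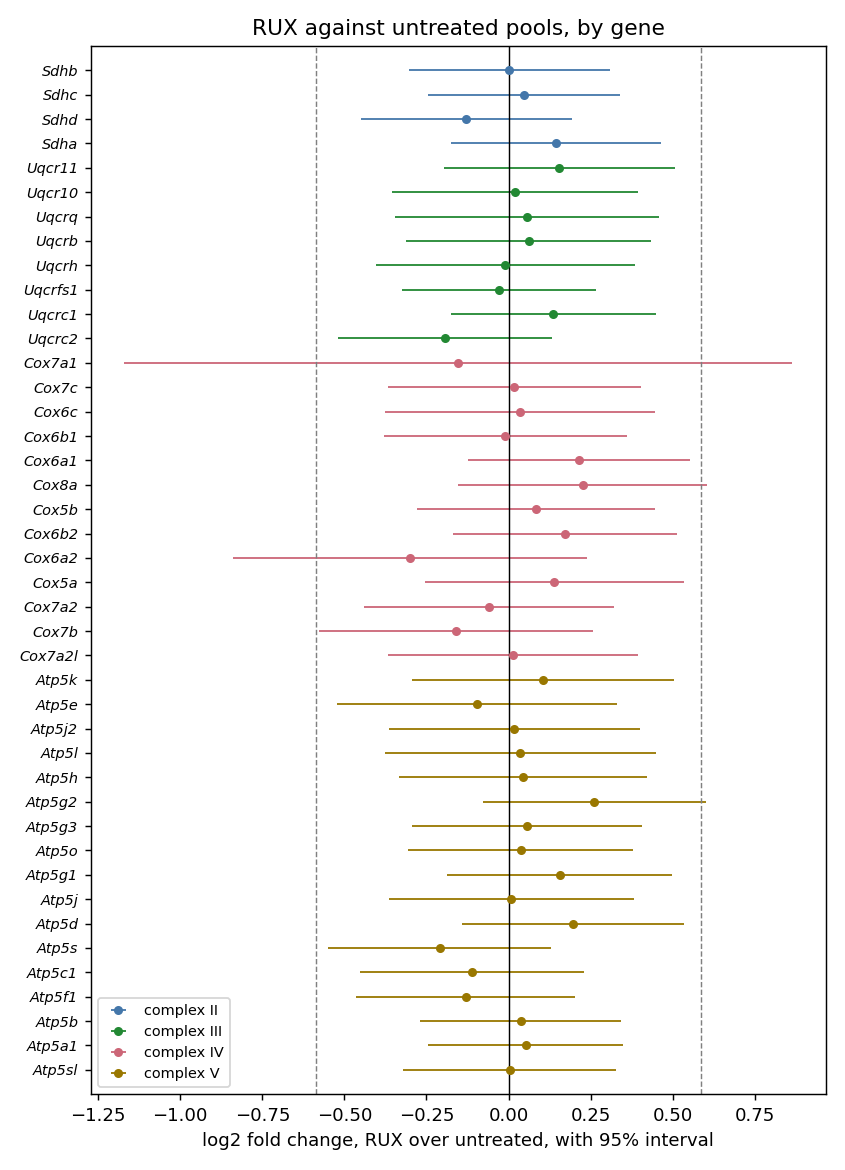
Log2 fold change of each gene, RUX over untreated, with its 95% interval from edgeR. Genes are ordered by complex and then by length, and dashed lines mark 1.5-fold in either direction. All 42 intervals include 0, and the interval of Cox7a1 is the widest.

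Pools of the same group lay further apart than the group means did. RUX pool 4 and untreated pool 3 held the 2 highest values in 30 of the 42 genes, against 15.3% of all tested genes, a description chosen after the values were seen. CPM are counts scaled to a common library size. Averaged over the 42 genes, log2(CPM + 1) departed from the gene's own average by 0.21, −0.07 and −0.10 in RUX pools 4, 5 and 6 and −0.09, −0.13 and 0.18 in untreated pools 1, 2 and 3. One pool of each group stood high and the other 4 lay low, so the group means of this deviation were 0.01 and −0.01. In bulk pools, fewer cells that express a gene and less of its RNA per cell cannot be told apart.

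The pattern was more frequent among short genes. The 17 tested members with under 600 exon bases had RUX pool 4 and untreated pool 3 highest in 17 of 17 cases, with mean deviations of 0.33, −0.08 and −0.17 in RUX pools 4 to 6 and −0.15, −0.17 and 0.25 in untreated pools 1 to 3. The 10 members of at least 600 and under 1000 bases showed it in 7 of 10, and 426 of 770 other genes of that length did (55.3%). The 15 members of 1000 bases or more showed it in 6 of 15, with deviations of 0.04, −0.05 and −0.04 in RUX pools and 0.05, −0.12 and 0.12 in untreated pools, and 1428 of 12295 other genes of that length showed it (11.6%). These members are shorter than the others, and between 1000 and 2000 bases it was 5 of 12 members and 824 of 3025 other genes (27.2%). The 304 other tested genes under 600 bases had values of 0.27, −0.06 and −0.17 in RUX pools and −0.16, −0.05 and 0.17 in untreated pools, and 173 of them had those 2 pools highest (56.9%). The 43 tested genes with symbols in Nduf gave 0.21, −0.05 and −0.12 in RUX pools and −0.07, −0.15 and 0.19 in untreated pools. These symbols take in genes of complex I, and also Ndufa4, which is found with complex IV. Of 96 tested genes whose symbols begin with Rpl or Rps and a digit, 81 had those 2 pools highest. That symbol rule takes in cytosolic ribosomal protein genes but is not limited to them. The pattern was thus also present outside the respiratory chain. Cell type markers also differed between pools. Some sets were highest in those 2 pools, some were lowest there, and others did neither. Summed over 8 eosinophil markers, RUX pools 4, 5 and 6 held 227, 106 and 62.1 CPM of the whole library and untreated pools 1, 2 and 3 held 60.9, 51.0 and 243 CPM. Most of this was Prg2, with 207, 80.7 and 41.3 CPM in RUX pools and 40.1, 35.7 and 214 CPM in untreated pools. Of the 8 markers, 6 had RUX pool 4 and untreated pool 3 highest. Of 16 neutrophil markers, 5 had RUX pool 4 and untreated pool 3 highest. The 16 summed to 11549, 11107 and 8813 CPM in RUX pools and 7660, 7089 and 15678 CPM in untreated pools. Most of this was Mpo, an early granule gene, with 6973, 7182 and 6035 CPM in RUX pools and 5487, 3630 and 9240 CPM in untreated pools. Marker sums are CPM of the whole library, whereas values of single genes use the library scaling of the test (TMM), so the 2 differ slightly in scale. Late granule genes were also high in untreated pool 2, where Mpo was lowest. S100a8 measured 497, 254 and 111 CPM in RUX pools and 54.5, 609 and 739 CPM in untreated pools. Of the erythroid markers, 20 were in the table, and 4 globin genes among them stood at 0 counts in every pool. The 20 summed to 5754, 7078 and 9680 CPM in RUX pools and 6908, 7912 and 6510 CPM in untreated pools. This sum was lowest in RUX pool 4 and next lowest in untreated pool 3, and most of it was Car1 and Car2. Kit, which encodes the CD117 antigen of the sort, measured 295, 412 and 416 CPM in RUX pools and 409, 471 and 196 CPM in untreated pools. It was lowest in untreated pool 3 and next lowest in RUX pool 4. The 12 stem cell markers summed to 274, 317 and 303 CPM in RUX pools and 315, 298 and 209 CPM in untreated pools. Their sum, too, was lowest in untreated pool 3 and next lowest in RUX pool 4. The 16 B and T lymphoid markers summed to 829, 993 and 743 CPM in RUX pools and 1074, 1035 and 924 CPM in untreated pools, lowest in RUX pool 6. The 12 monocyte and dendritic markers summed to 1405, 1500 and 1121 CPM in RUX pools and 1677, 1350 and 2053 CPM in untreated pools. The 8 basophil and mast cell markers summed to 364, 382 and 269 CPM in RUX pools and 322, 296 and 300.4 CPM in untreated pools. The 10 megakaryocyte markers summed to 241, 265 and 249.3 CPM in RUX pools and 213, 234 and 194 CPM in untreated pools. Their log2 fold changes were positive in 10 of 10, and 0 were called. Other marker lists also leaned to 1 side with 0 called. Of tested B and T lymphoid markers 13 were negative and 2 positive, and of monocyte and dendritic markers 10 were negative and 2 positive. Erythroid markers were positive in 12 and negative in 4. The part of gene length and of cell makeup in the pool pattern was not tested.

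**Figure D2:**
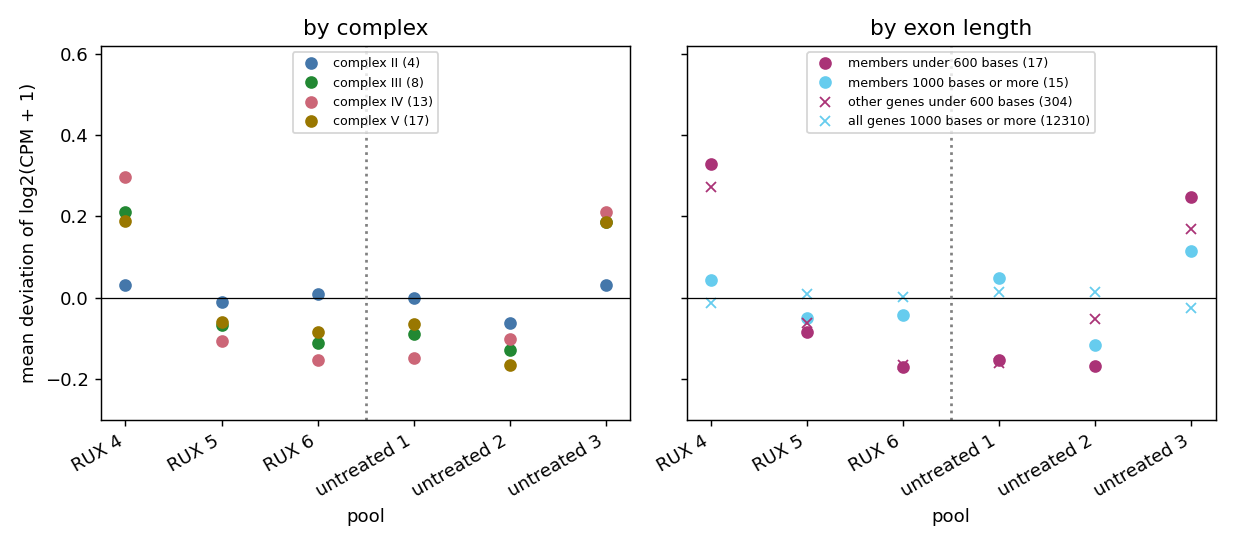
Departure of log2(CPM + 1) from the average of the gene across the 6 pools, averaged over the genes of a group and drawn by pool, with RUX pools left of the dotted line. The left panel shows the complexes. The right panel shows members by exon length, other genes under 600 bases, and all genes of 1000 bases or more, members included. The number of genes is in brackets. Complexes III, IV and V are high in RUX pool 4 and untreated pool 3, complex II lies between −0.06 and 0.03, and short genes outside the complexes show the same pools high.

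Taken as a whole, complex II was the steadiest of the 4 across pools. Its 4 genes all have 1073 exon bases or more, and its parts varied more than the whole. Mean deviations of log2(CPM + 1) ran from −0.10 to 0.10 for Sdha and Sdhb and from −0.12 to 0.10 for Sdhc and Sdhd. The genes of complex II summed to 1655, 1623 and 1656 CPM in RUX pools 4, 5 and 6. In untreated pools 1, 2 and 3 they summed to 1662, 1582 and 1656 CPM. The group means were 1645 ± 19.0 and 1633 ± 44.5 CPM (RUX and untreated, SD, n = 3 each). Sdha, the flavoprotein that oxidises succinate, measured 502, 528 and 582 CPM in RUX pools against 452, 557 and 450 CPM in untreated pools. Its groups overlapped, with a log2 fold change of 0.14 ± 0.15 (SE) and a 95% interval of 0.885 to 1.38 for the fold. Sdhb, the iron-sulfur subunit, measured 295, 273 and 284 CPM in RUX pools against 277, 257 and 317 CPM in untreated pools, a log2 fold change of 0.002. Of the membrane anchors that bind ubiquinone, Sdhc measured 308, 292 and 280.2 CPM in RUX pools and 280.2, 274 and 299 CPM in untreated pools. Sdhd, the other anchor, measured 550, 529 and 510 CPM in RUX pools and 653, 494 and 589 CPM in untreated pools, a log2 fold change of −0.13 ± 0.15 (SE). Here untreated pools 1 and 2 were the highest and lowest of the 6, and RUX pools lay between them. Per kilobase of exon, Sdhd was the most abundant of the 4 transcripts, at 412 ± 15.6 CPM per kilobase in RUX pools and 451 ± 62.1 in untreated pools, and Sdha the least, at 188 ± 14.2 and 170.2 ± 21.3 (RUX and untreated, SD, n = 3 each).

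In complex III the large and the small subunits parted between pools. The summed level was 2602 ± 256 CPM in RUX pools and 2536 ± 294 CPM in untreated pools (SD, n = 3 each), with 5 of 8 log2 fold changes positive and a median of 0.04. Uqcrc1, one of the core proteins, measured 624, 682 and 715 CPM in RUX pools against 572, 581 and 686 CPM in untreated pools. Uqcrc2, its partner, measured 274, 253 and 288 CPM in RUX pools against 352, 261 and 320 CPM in untreated pools. Their log2 fold changes were of opposite sign, 0.14 ± 0.15 and −0.19 ± 0.15 (SE), and neither passed the test (edgeR unadjusted p = 0.366 and 0.224). Uqcrfs1, the Rieske iron-sulfur protein that moves electrons to cytochrome c1, varied least, with 300.3, 267 and 263 CPM in RUX pools and 280, 275 and 293 CPM in untreated pools. The 5 small subunits Uqcrb, Uqcrh, Uqcrq, Uqcr10 and Uqcr11 all peaked in RUX pool 4 with untreated pool 3 next. Together they gave 1697, 1271 and 1169 CPM in RUX pools and 1201, 1214 and 1574 CPM in untreated pools. Uqcr11 had the smallest p of them on the higher side, at 278, 217 and 218 CPM in RUX pools and 187, 200 and 253 CPM in untreated pools (log2 fold change 0.15 ± 0.16, SE). Uqcrb and Uqcr10 were the most abundant per length, at 705 ± 152 and 602 ± 111 CPM per kilobase in RUX pools and at 676 ± 86.0 and 594 ± 108 in untreated pools (SD, n = 3 each). Of genes with other symbols, cytochrome c1 (Cyc1) stood at 331 ± 17.6 CPM in RUX pools and 316 ± 29.8 CPM in untreated pools, and the carrier that complex III reduces, cytochrome c (Cycs), at 289 ± 41.3 and 279 ± 40.7 CPM (RUX and untreated, SD, n = 3 each).

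Complex IV varied most between pools. Its nuclear subunits surround the catalytic core, which mitochondrial DNA encodes. The 13 tested genes summed to 4394, 3298 and 3184 CPM in RUX pools and to 3118, 3189 and 4095 CPM in untreated pools, and log2 fold changes were positive in 8 and negative in 5, the median being 0.02. Cox8a, a small membrane subunit, measured 514, 373 and 372 CPM in RUX pools against 296, 366 and 416 CPM in untreated pools. Its log2 fold change was 0.23 ± 0.18 (SE), and untreated pool 3 stood above RUX pools 5 and 6. Cox6a1, a regulatory subunit, measured 501, 410 and 430 CPM in RUX pools against 328, 389 and 440 CPM in untreated pools, a log2 fold change of 0.21 ± 0.16 (SE). On the lower side Cox7b had a log2 fold change of −0.16 ± 0.19 (SE), with 318, 241 and 245 CPM in RUX pools against 300, 220 and 380 CPM in untreated pools. Untreated pools 2 and 3 were the lowest and highest of the 6 for this gene. Cox7a2l, which takes part in joining complexes III and IV into a supercomplex, measured 176, 125 and 110 CPM in RUX pools against 130, 126 and 151 CPM in untreated pools. The other nuclear subunits, Cox5a, Cox5b, Cox6b1, Cox6c, Cox7a2 and Cox7c, had log2 fold changes from −0.06 to 0.14. Per length Cox6b1, which joins the monomers of the enzyme, and Cox6c had the highest levels of complex IV over all pools, at 996 ± 159 and 821 ± 217 CPM per kilobase in RUX pools and 1004 ± 182 and 801 ± 129 in untreated pools (SD, n = 3 each). Cox4i1, the largest nuclear subunit, measured 980, 776 and 670 CPM in RUX pools and 756, 708 and 933 CPM in untreated pools.

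**Figure D3:**
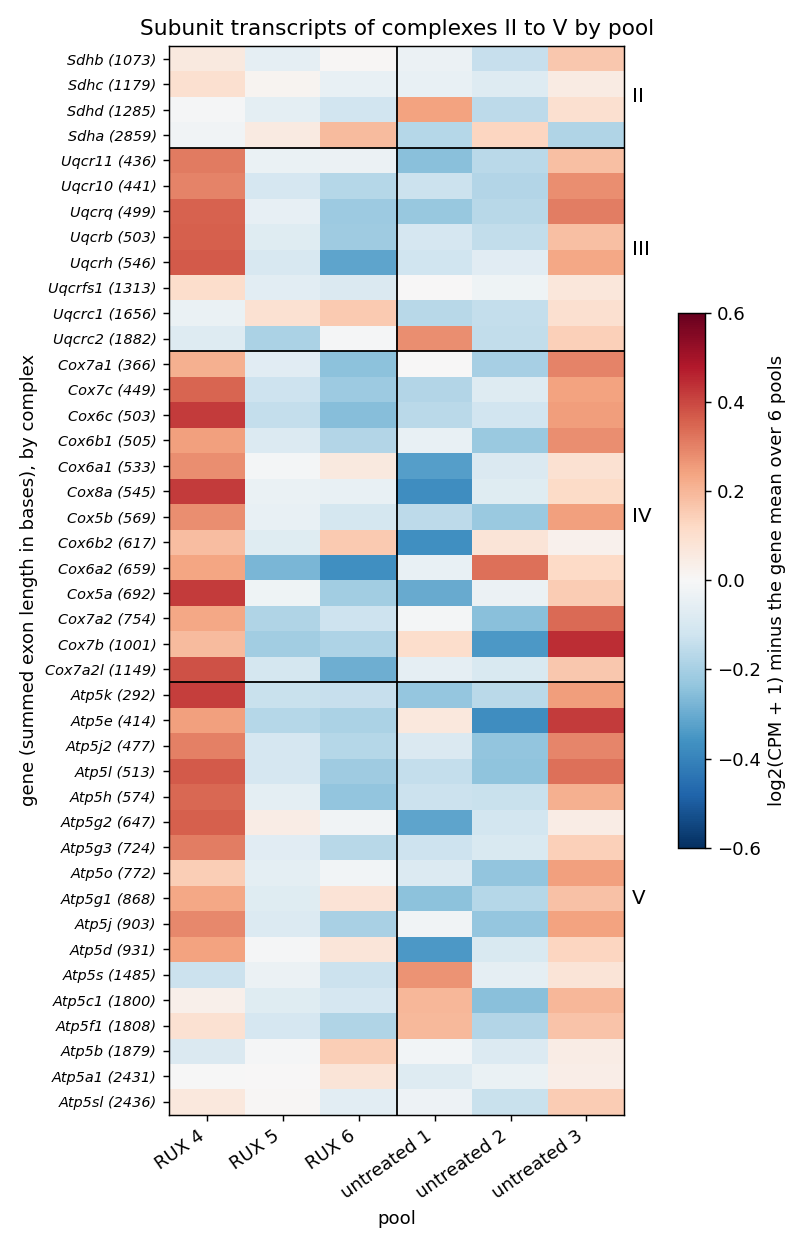
Departure of log2(CPM + 1) from the average of the gene across the 6 pools for the 42 tested genes, by complex and, within a complex, from short to long. Columns are pools, RUX on the left of the vertical line. The genes under 600 bases in complexes III, IV and V are highest in RUX pool 4 and untreated pool 3, and the long genes Sdha, Atp5a1 and Atp5b are not.

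The isoforms of complex IV used by these cells were mostly those known from most tissues. Cox6a1 held 99.1 ± 0.158% of Cox6a transcripts per length in RUX pools and 98.7 ± 0.183% in untreated pools, and Cox7a2 held 99.4 ± 0.143% and 99.4 ± 0.106% of the pair Cox7a1 and Cox7a2 (RUX and untreated, SD, n = 3 each). Cox6a2 and Cox7a1 are the heart and muscle forms. Cox8b, also a muscle form, had 1 read pair in all, in untreated pool 2, and Cox8c and Cox7b2, known from testis, had 0 in every pool. A count of 0 allows up to 0.0615 to 0.0652 CPM in RUX pools and 0.0775 to 0.110 CPM in untreated pools (3 counts per library, counting error only). Cox6b2, the testis form of Cox6b, was present in every pool, at 78.3, 65.1 and 76.5 CPM in RUX pools and 53.0, 72.4 and 69.8 CPM in untreated pools. It made up 9.73, 10.1 and 12.4% of Cox6b transcripts per length in RUX pools and 8.22, 12.2 and 8.59% in untreated pools. None of its 50-base stretches was found in another annotated locus. The share of Cox6a2 was small, at 1.06, 0.855 and 0.752% in RUX pools and 1.29, 1.46 and 1.10% in untreated pools. The highest RUX share lay just under the lowest untreated share, and that of Cox6a1 is its complement. The CPM of Cox6a2 itself overlapped, at 6.65, 4.37 and 4.03 CPM in RUX pools and 5.29, 7.14 and 6.04 CPM in untreated pools (log2 fold change −0.30 ± 0.25, SE). Of the Cox6a2 exon bases, 10.5% lie within exons of Itgad.

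**Figure D4:**
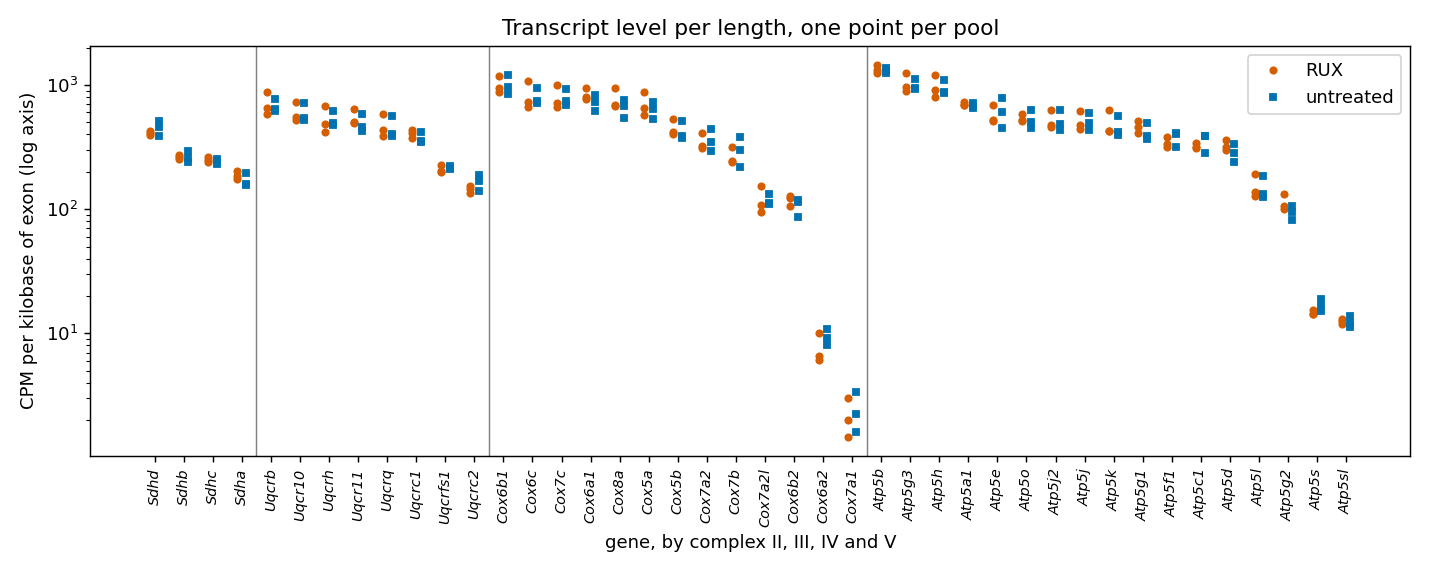
Level of each tested gene in CPM per kilobase of exon on a log axis, 1 point per pool, RUX points left of untreated points. Atp5b is the highest, and the tissue isoforms Cox6a2 and Cox7a1 and the non-subunit genes Atp5s and Atp5sl lie far below the other members.

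Complex V had the largest summed CPM, and its catalytic beta subunit had the highest level per length. Its 17 genes summed to 9702, 8760 and 8995 CPM in RUX pools and to 8799, 8260 and 9905 CPM in untreated pools, and 13 of 17 log2 fold changes were positive, with a median of 0.04. Atp5b, the catalytic beta subunit, measured 2336, 2462 and 2742 CPM in RUX pools against 2449, 2343 and 2556 CPM in untreated pools. Per length it was the highest of all 42 genes, at 1338 ± 111 CPM per kilobase in RUX pools and 1304 ± 56.8 in untreated pools (SD, n = 3 each). Atp5a1, the alpha subunit that alternates with it, measured 1675, 1682 and 1773 CPM in RUX pools and 1594, 1631 and 1724 CPM in untreated pools. Neither shared the pool pattern of the short genes. In the central stalk that turns within the head, Atp5d had a log2 fold change of 0.20 ± 0.16 (SE), at 333, 280.0 and 297 CPM in RUX pools against 221, 264 and 309 CPM in untreated pools, while Atp5c1 and Atp5e had values of −0.11 and −0.10. The peripheral stalk genes Atp5f1, Atp5h, Atp5j and Atp5o, which hold the head still, had values from −0.13 to 0.04. Atp5f1 measured 685, 601 and 569 CPM in RUX pools against 738, 569 and 725 CPM in untreated pools. Atp5h, whose promoter is shown above, measured 692, 523 and 463 CPM in RUX pools against 499, 497 and 632 CPM in untreated pools. The membrane subunits Atp5j2, Atp5k and Atp5l, which help the enzyme form dimers, had values from 0.02 to 0.10. Atp5s and Atp5sl are not subunits of the enzyme despite their symbols. They stood at 21.7 ± 0.863 and 30.5 ± 1.39 CPM in RUX pools and 25.1 ± 3.00 and 30.4 ± 3.15 CPM in untreated pools (SD, n = 3 each), with log2 fold changes of −0.21 and 0.003.

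The 3 Atp5g genes encode the same mature c subunit of the proton-driven ring, and none passed the test. Atp5g2 had the smallest p of the 42 genes, at 84.9, 68.3 and 65.2 CPM in RUX pools against 52.8, 61.3 and 68.2 CPM in untreated pools. Its log2 fold change was 0.26 ± 0.16 (SE; edgeR unadjusted p = 0.121), with a 95% interval of 0.947 to 1.52 for the fold. Atp5g1 measured 443, 359 and 399 CPM in RUX pools against 318, 334 and 426 CPM in untreated pools. Atp5g3, the main source, measured 905, 698 and 652 CPM in RUX pools against 672, 688 and 807 CPM in untreated pools. The log2 fold change of Atp5g1 was 0.16 ± 0.16 and that of Atp5g3 was 0.06 ± 0.16 (SE). The value of Atp5g3 turned to −0.09 without RUX pool 4 and to −0.008 without RUX pool 4 and untreated pool 3. Of c subunit transcripts per length, Atp5g3 made up 64.3 ± 2.30% in RUX pools and 66.4 ± 1.15% in untreated pools (SD, n = 3 each). Atp5g2 made up 6.94, 7.12 and 6.90% in RUX pools and 5.93, 6.62 and 6.16% in untreated pools. Its CPM overlapped between the groups. Shares within a paralog group were examined for 5 groups with more than 1 expressed gene (Cox4i, Cox6a, Cox6b, Cox7a and Atp5g). They were not tested, and no share over all genes is at hand to set them against. For Atp5g2, 36.7% of the 50-base stretches of its annotated transcripts also occur at other annotated loci, the highest share among the members, and read pairs that map to several places were left out of the counts by the counting tool's defaults. The other members with over 10% of such stretches were Uqcrb (25.4%), Cox7c (22.1%), Atp5h (19.9%), Cox7a2l (13.8%), Cox5b (11.9%) and Atp5g1 (10.2%). The levels of all these genes are less certain for it. The shares do not measure by how much, because they cover all annotated transcripts rather than the counted exons, and lost read pairs were not counted. Exons overlap those of another gene for Atp5j (13.6% of its bases, with Gabpa), Uqcrc2 (12.1%, with Pdzd9) and Atp5f1 (11.3%, with Wdr77), and strands were not told apart in counting.

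Related genes of the same machinery gave no called gene either. Of 35 tested assembly factors of complexes II to V, 14 were on the positive side and 21 on the negative, the median log2 fold change was −0.04, and 0 were called. Tmem70, which assists ATP synthase assembly, came nearest, at 76.2, 81.8 and 84.2 CPM in RUX pools and 125, 83.1 and 97.6 CPM in untreated pools (log2 fold change −0.34 ± 0.16, SE; edgeR unadjusted p = 0.0579). Sdhaf2, which helps insert the flavin of Sdha, had a log2 fold change of −0.24, and Uqcc1, a complex III assembly factor, one of −0.20. Of 17 citric acid cycle and pyruvate dehydrogenase genes, 7 were positive and 10 negative, with a median of −0.04, and Fh1 (fumarase), Pdhx and Cs (citrate synthase) had values of −0.17, −0.12 and 0.10. Of 8 tested carriers and uncoupling genes, 5 were positive. The phosphate carrier Slc25a3 had a log2 fold change of 0.17, Slc25a5, an ADP/ATP exchanger, one of −0.15, and Vdac1, a channel of the outer membrane, one of 0.15. Of 8 other subunits and carriers outside the symbol rule, 4 were positive, with a median of 0.01. Cox4i2, the hypoxia-induced form of Cox4i, had a log2 fold change of −0.26 at about the level of 1 CPM, and Ndufa4 and Usmg5, small proteins found with complexes IV and V, had values of −0.09 each. Atpif1, the ATP synthase inhibitor, measured 930 ± 147 CPM in RUX pools and 918 ± 141 CPM in untreated pools (SD, n = 3 each).

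Of 19 tested regulators of respiratory genes, 10 were on the positive side and 9 on the negative. Ppargc1a, a coactivator that drives mitochondrial gene programs, was the 1 of these 19 without overlap between the groups, a share no higher than the 6.24% of all tested genes. It was counted rarely, with 13, 3 and 12 read pairs in RUX pools and 18, 33 and 17 in untreated pools, or 0.301, 0.0615 and 0.238 CPM against 0.643, 0.845 and 0.467 CPM. Its log2 fold change was −1.70 ± 0.62 (SE; edgeR unadjusted p = 0.0161, adjusted p = 1.00), and RUX pool 5 stood at the floor of 3 counts. The related Ppargc1b was at 10.3 ± 0.644 CPM in RUX pools and 9.77 ± 1.63 CPM in untreated pools (SD, n = 3 each). Gabpb1, the partner of Gabpa, and Tfb1m, a mitochondrial methyltransferase, had log2 fold changes of −0.24 and −0.18. Nrf1, Gabpa and Tfam, which act on promoters of respiratory genes or on mitochondrial DNA, had log2 fold changes of −0.03, −0.12 and −0.08.

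With RUX pool 4 and untreated pool 3 left out together, a choice made after the values were seen, the median log2 fold change of the 42 genes was 0.02, with 23 positive and 19 negative. In that comparison of 2 against 2 pools, 16 of the 42 did not overlap between groups, against 32.4% of all tested genes, and 0 were called.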

How the data were processed

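Library preparation used SMART-Seq mRNA LP (Takara), per the labels' protocols, and the submitters' processing notes name STAR and mm10. The deposited table holds raw counts, whole read pairs assigned to each gene by featureCounts 2.0.3 from UCSC mm10 exons. No strand, multi-mapping or overlap option was set, per the file headers. The deposited table also gives exon lengths.

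edgeR 4.0.16 (R 4.3.3) kept 13411 of 24421 genes with filterByExpr and scaled libraries by TMM. The quasi-likelihood test used treatment as its only term, with Benjamini-Hochberg adjustment. It was also run on simulated data in which genes varied independently, so that run does not cover the pool pattern shared by genes. SE and 95% intervals were derived from each log2 fold change and its F statistic. The 6 pools held different animals, 2 to 3 each, and p-values rest on how far pools differ.

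Members and gene lists were chosen with earlier results of these data known. Named were all Sdh genes, in each other complex 2 genes by smallest p in each direction and 2 by level per length, paralog groups, untested members, up to 3 genes per list by p, and genes described for their role. Of the 45 members, 44 were matched to GENCODE transcripts to find 50-base stretches shared with other loci. Alternatives covered scaling, filters, DESeq2 1.42.0, limma-voom 3.58.1 and robust fitting. They also covered leaving out 100 genes whose symbols begin with Rpl or Rps and a digit, and leaving out each pool.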

Additional observations from a re-analysis of the deposited data

How the results depend on the processing

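No member was called in any of the 15 alternatives tried or without untreated pool 3 and RUX pool 4, and the count at an unadjusted p under 0.05 was 0 in each, by edgeR, DESeq2 and limma-voom alike. Over all tested genes, 14 were called with no filter on low counts and 1 by limma-voom with quality weights, none of them a member. Under the other scalings, filters and tools 22 to 30 members had positive values, the fewest by limma-voom with quality weights. That fit gave complex IV a median log2 fold change of −0.02. The median log2 fold change of all members was 0.02 to 0.04 under the other scalings, filters and tools. With 1 pool left out it ran from −0.12 to 0.15 for all members, −0.0129 to 0.0875 for complex II, −0.12 to 0.17 for complex III, −0.17 to 0.18 for complex IV and −0.10 to 0.14 for complex V. Members without overlap then numbered 0, 6 and 12 of 42 without untreated pools 1, 2 and 3 in turn. The shares of all tested genes without overlap were 11.7%, 20.8% and 19.5%. Without RUX pools 4, 5 and 6 the members numbered 4, 2 and 1, against 16.2%, 11.1% and 15.2% of all tested genes. Without untreated pool 3 and RUX pool 4 the number was 16, against 32.4% of all tested genes. With all 6 pools that share was 6.24%, so it too was higher with fewer pools. The cause of differences between members and all genes was not tested. Between 12 and 35 of the 42 members had positive values when 1 pool was left out. No paired analysis was possible because the pool numbers are not shared between the groups. Depth limits the statements on Cox7a1, Cox8b, Cox8c, Cox7b2 and Ppargc1a.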
